A study of Oryctolagus cuniculus with 4 samples.

Results

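Glycolysis is the chain of cytosolic enzymes that turns glucose into pyruvate and yields ATP without oxygen. Hexokinases trap glucose in the cell by phosphorylation, the upper chain splits the sugar into triose phosphates, and the lower chain harvests ATP and NADH from them. In skin, keratinocytes are known for a high glycolytic rate with lactate as the main product, and genes of the chain are textbook targets of the hypoxia factor HIF1A. Hypertrophic scar (HS) tissue is described as hypoxic, which gives the question for these data: were the glycolysis enzymes higher or lower in scar that had received drug-loaded microneedles (MNs)?

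The enzymes were chosen by name as 10 genes of the chain, namely HK1, HK2, PFKP, ALDOA, TPI1, GAPDH, PGK1, ENO1, PKM and LDHA. Of these, 7 had a row under their symbol among the 13913 genes of the table, and PFKP, PGK1 and LDHA were not analysed here. All 7 were among the 9348 genes tested. In order of their step they were HK1 (ENSOCUG00000006697), HK2 (ENSOCUG00000000197), ALDOA (ENSOCUG00000006329), TPI1 (ENSOCUG00000025649), GAPDH (ENSOCUG00000025023), ENO1 (ENSOCUG00000010086) and PKM (ENSOCUG00000006119).

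Droplet libraries of the 10x Genomics 3' kind were made from scars raised on the ears of wild-type female rabbits, bought at 10 to 12 weeks of age, by removing round pieces of skin from the inner side. The HS group (n = 2 libraries) had no treatment. The drug-loaded MNs group (n = 2) had the same scars and was given patches once a week, 3 times, whose tips stay in the skin and hold a prodrug of 5-fluorouracil acetic acid in a gelatin gel, and drug-free patches were not in this series. Each library was 1 scar tissue, of which the ventral epidermis and dermis were dissociated. The samples of a group were described as biologically independent, but whether their scars came from different rabbits was not stated, so p-values measure the spread between these libraries.

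The table held 1 value per gene and library, scaled by the authors to a fixed total, so depth was unknown and no counting interval could be given. Values below are in units of 1 part in 1000000 of a library's total. With 1 value per library, fewer cells of a type and less RNA per cell cannot be told apart. Skin markers were present in every library: the 4 suprabasal keratinocyte markers in the table summed to between 31363 and 52315 units and the 5 fibroblast markers to between 22452 and 48451 units. Fibroblast markers were all 5 higher in drug-loaded MNs, and the share of mitochondrially encoded genes was 2.75% and 2.80% in HS against 4.37% and 4.58% in drug-loaded MNs. For several of the enzymes HS replicate 1 lay far from the other libraries, and results that rest on it are given with and without it.

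For each of the 7 enzymes, the 95% interval of the log2 difference between drug-loaded MNs and HS included 0. In limma, 0 of 7 passed an adjusted p of 0.05, where 4 of all 9348 tested genes did (0.0428%), and 0 of 7 had an unadjusted p under 0.05, where 8.65% of tested genes did. The values of the groups overlapped in all 7, whereas 37.8% of tested genes had groups that did not overlap. Log2 fold changes were below 0 in 6 of the 7, against 35.4% of tested genes, and HK1 was the exception. Their median was -0.22, beside a median of 0.12 over all tested genes.

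**Figure D1:**
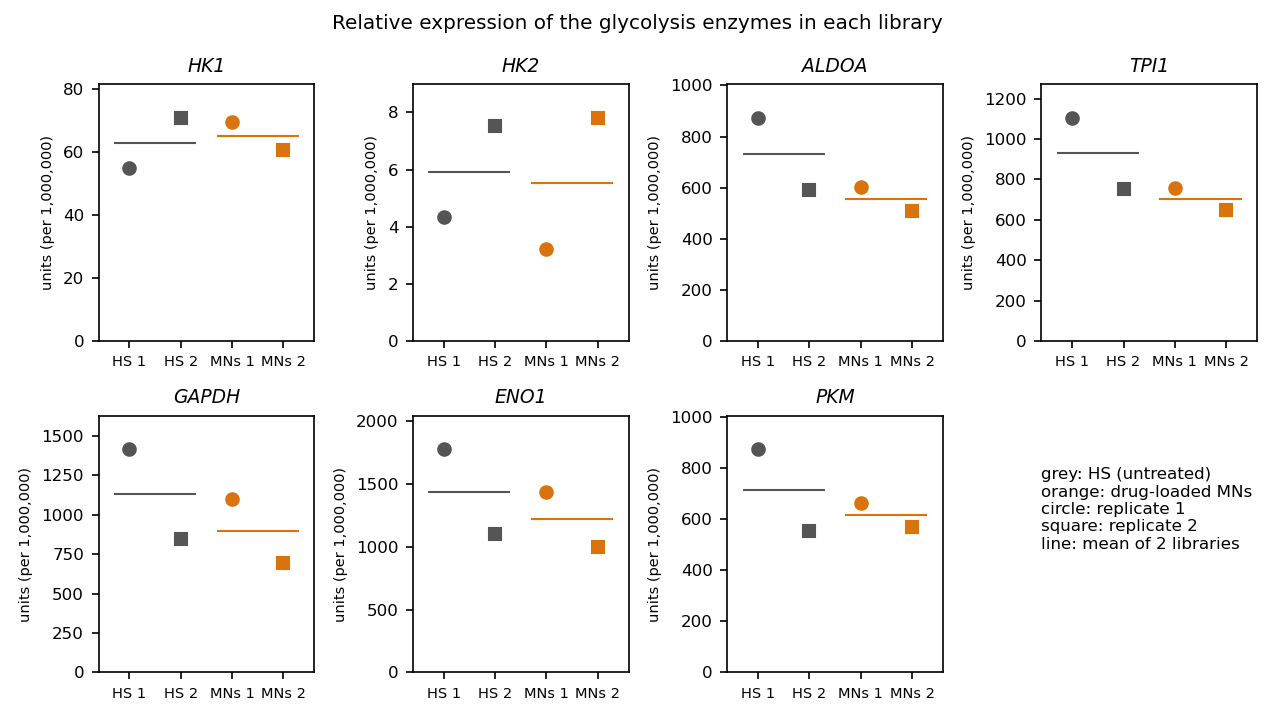
Relative expression of each enzyme in units per 1000000 of the library total (vertical axis from 0, a scale for each gene) in the 4 libraries (horizontal axis), with grey for HS, orange for drug-loaded MNs and a line at the mean of the 2 libraries of a group. HS replicate 1 is the highest point in ALDOA, TPI1, GAPDH, ENO1 and PKM and the lowest in HK1.

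The hexokinases catalyse the entry step, HK1 being the form found in most tissues and HK2 the form that responds to insulin and hypoxia. HK1 stood at 54.8 and 70.7 units in the HS libraries and at 69.6 and 60.7 units in the drug-loaded MNs libraries. The HS libraries were thus the highest and the lowest of the 4, with both drug-loaded MNs libraries between them. The group means were 62.7 ± 11.3 and 65.2 ± 6.28 units (SD, n = 2 each). On the log2 scale they differed by 0.06 (95% interval -0.50 to 0.62, adjusted p 0.968 by limma). This sign turned under other scalings, with -0.080 when scaled by median ratios and -0.012 when quantile normalized. HK2 was a low gene, at 4.35 and 7.51 units in HS against 3.23 and 7.81 units in drug-loaded MNs. Both replicate 2 libraries lay above both replicate 1 libraries, so the drug-loaded MNs libraries were the highest and the lowest here. The log2 fold change of HK2 was -0.14 with a wide interval of -1.14 to 0.85 (limma adjusted p 0.956), and leaving out HS replicate 2 or drug-loaded MNs replicate 1 turned it to 0.19 or 0.38.

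ALDOA is the aldolase that splits fructose bisphosphate, and TPI1 interconverts the triose phosphates that result. ALDOA was at 873 and 591 units in HS against 601 and 509.7 units in drug-loaded MNs. TPI1 was at 1105 and 755 units in HS against 756 and 649 units in drug-loaded MNs. In both genes HS replicate 1 was far above the other libraries, and drug-loaded MNs replicate 1 lay just above HS replicate 2. Group means were 732 ± 199 and 555 ± 64.3 units for ALDOA and 930.1 ± 247 and 703 ± 76.0 units for TPI1 (SD, n = 2 each). Both genes had a log2 fold change of -0.38 (SE 0.26 each), with a limma adjusted p of 0.774 for ALDOA and 0.772 for TPI1. Their sign was the same in all 14 alternative analyses. Of these, only other scalings, other pseudocounts and leaving out a library could have changed it. The filters, the variance priors and the replicate block left both fold changes as they were.

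GAPDH makes the NADH of the chain, ENO1 is the enolase that forms phosphoenolpyruvate, and PKM is the pyruvate kinase that ends the chain. GAPDH was at 1414 and 849 units in HS against 1098 and 697 units in drug-loaded MNs. ENO1 was at 1773 and 1102 units in HS against 1434 and 999 units in drug-loaded MNs. PKM was at 874 and 556 units in HS against 663 and 569 units in drug-loaded MNs. HS replicate 1 was highest in each, while the lowest library was drug-loaded MNs replicate 2 for GAPDH and ENO1 and HS replicate 2 for PKM. The log2 fold changes were -0.32 for GAPDH (95% interval -1.10 to 0.45, limma adjusted p 0.861), -0.22 for ENO1 (-0.95 to 0.51, limma adjusted p 0.898) and -0.18 for PKM (-0.83 to 0.46, limma adjusted p 0.905). GAPDH is widely used as a reference gene, and its ratio between HS replicate 1 and HS replicate 2 was 1.67, wider than its ratio between the group means of drug-loaded MNs and HS (0.793).

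**Figure D2:**
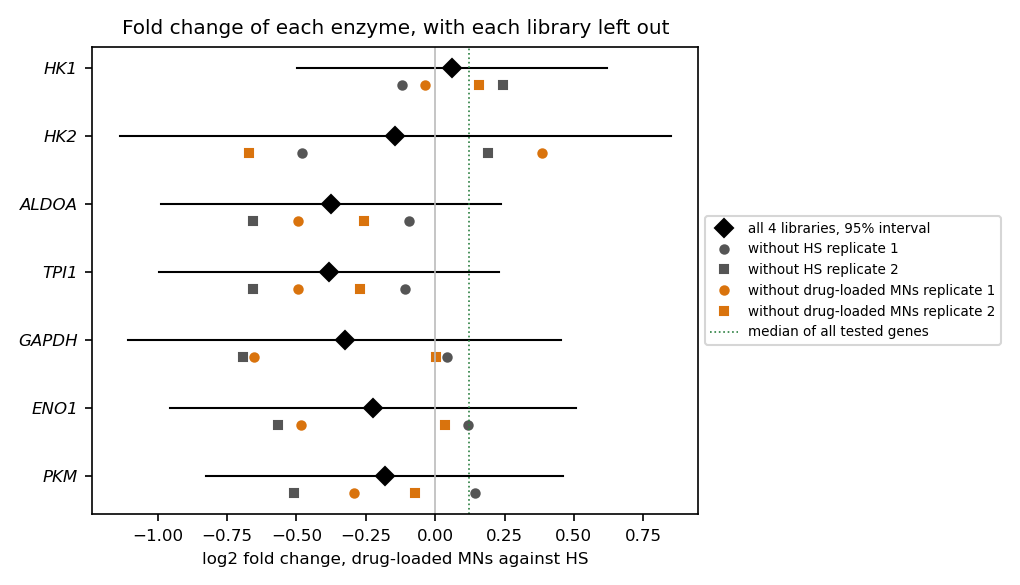
Log2 fold change of drug-loaded MNs against HS (horizontal axis) for each enzyme (rows), with black diamonds and 95% intervals from all 4 libraries, smaller points for the fit with 1 library left out, and a dotted line at the median of all tested genes (0.12). Every interval crosses 0, and without HS replicate 1 the values of GAPDH, ENO1 and PKM lie above 0.

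The direction of the lower-chain genes rested on single libraries. Without HS replicate 1, the median of the 7 enzymes was -0.094 and 4 of 7 were below 0, with GAPDH at 0.042, ENO1 at 0.12 and PKM at 0.14. Without drug-loaded MNs replicate 2 the median was -0.072, with GAPDH at 0.003 and ENO1 at 0.04. Its value reached -0.57 when HS replicate 2 was left out, or -0.48 when drug-loaded MNs replicate 1 was. ALDOA and TPI1 stayed below 0 with each library left out, at -0.66 to -0.09 and -0.66 to -0.11.

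The 5 enzymes from aldolase to pyruvate kinase varied together between libraries. HS replicate 1 was the highest library in all 5, which was so in 18.8% of tested genes. ALDOA, TPI1, GAPDH and ENO1 had the same full order, from HS replicate 1 through drug-loaded MNs replicate 1 and HS replicate 2 to drug-loaded MNs replicate 2. This order was found in 4.77% of tested genes. Both patterns were named after the values of the enzymes had been seen, so these shares are descriptions without a test. Between the HS libraries the ratio ran from 1.46 in TPI1 to 1.67 in GAPDH, and between the drug-loaded MNs libraries from 1.17 in PKM and TPI1 to 1.58 in GAPDH. The ratio of the group means, drug-loaded MNs to HS, lay between 0.755 and 0.862 in these genes. The hexokinases had neither this order nor HS replicate 1 as their highest library.

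**Figure D3:**
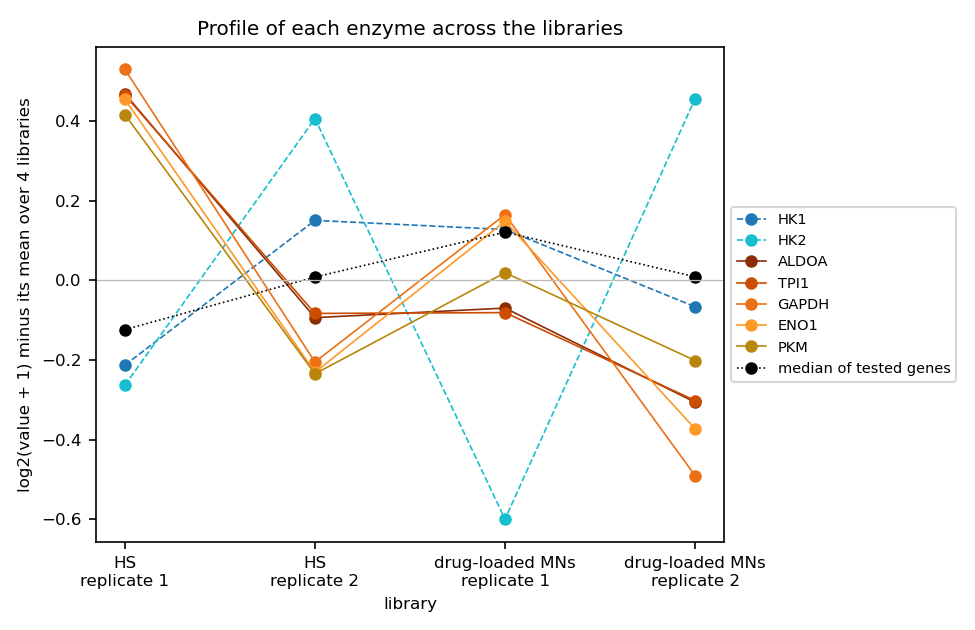
Log2(value + 1) of each enzyme minus its mean over the 4 libraries (vertical axis) in each library (horizontal axis), with solid lines for the 5 enzymes from aldolase to pyruvate kinase, dashed lines for the hexokinases and a dotted line for the median of tested genes. The lines only join the points of 1 gene. In HS replicate 1 the 5 solid lines lie between 0.42 and 0.53, while HK1 is at -0.21, HK2 at -0.26 and the median gene at -0.12.

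Summed over the 7 enzymes, the level was 6097 and 3931 units in HS against 4624 and 3491 units in drug-loaded MNs, or 0.349% to 0.610% of a library. The groups overlapped, since drug-loaded MNs replicate 1 was above HS replicate 2. The mean was 956 units lower in drug-loaded MNs than in HS, at 4058 ± 801 against 5014 ± 1532 units (SD, n = 2 each), a difference smaller than the SD within HS. Without HS replicate 1 the difference was 127 units in the other direction. The makeup of the total of the 5 enzymes from aldolase to pyruvate kinase also varied across libraries. ENO1 took 28.6% to 31.5% of it, GAPDH 20.4% to 24.1%, TPI1 16.6% to 19.6%, PKM 14.4% to 16.6% and ALDOA 13.2% to 15.3%. Whether the scale was corrected for gene length is not known, so these shares are compared across libraries only.

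Markers of several cell types also differed between the libraries. The 5 basal keratinocyte markers in the table (of 7 listed, none at 0) summed to 8265 and 5718 units in HS against 7678 and 4040 units in drug-loaded MNs, the order of libraries seen in ALDOA, TPI1, GAPDH and ENO1. Among the 5, that order was held by KRT14 alone, a keratin of the basal layer at 3282 and 1874 units in HS against 2451 and 1666 units in drug-loaded MNs. KRT5, its partner, and ITGA6, an integrin chain, were highest in drug-loaded MNs replicate 1, while COL17A1 and TP63 were lowest in HS replicate 1 and highest in HS replicate 2. The 4 suprabasal markers in the table (of 8 listed, none at 0) summed to 36817 and 52315 units in HS against 31363 and 41238 units in drug-loaded MNs. Most of that sum was KRT10, at 31734 and 45325 units in HS, and KRT1 of the same list was higher in replicate 1 of each group. The 5 cycling genes in the table (of 8 listed, none at 0) summed to 313 and 179 units in HS against 417 and 185 units in drug-loaded MNs.

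HS replicate 1 also had the highest sums of 4 other marker lists. The 4 chondrocyte markers in the table (of 7 listed, none at 0) summed to 414 and 98.5 units in HS against 243 and 182 units in drug-loaded MNs, with COL9A1, a cartilage collagen, at 273 and 6.53 units in HS. The 5 Schwann markers in the table (of 6 listed, none at 0) summed to 435 and 94.997 units in HS against 298 and 169.7 units in drug-loaded MNs. Of these, S100B, which cartilage cells and melanocytes also express, was at 410.4 and 17.02 units in HS. The 6 melanocyte markers (all in the table, none at 0) summed to 362 and 162 units in HS against 340.1 and 174 units in drug-loaded MNs. Erythroid markers were low, the 3 in the table (of 9 listed) summing to 7.77 and 0.187 units in HS against 1.67 and 0.684 units in drug-loaded MNs, with the globin gene HBB2 listed at 0 in HS replicate 2. The part of these cell types in the levels of the enzymes was not tested.

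**Figure D4:**
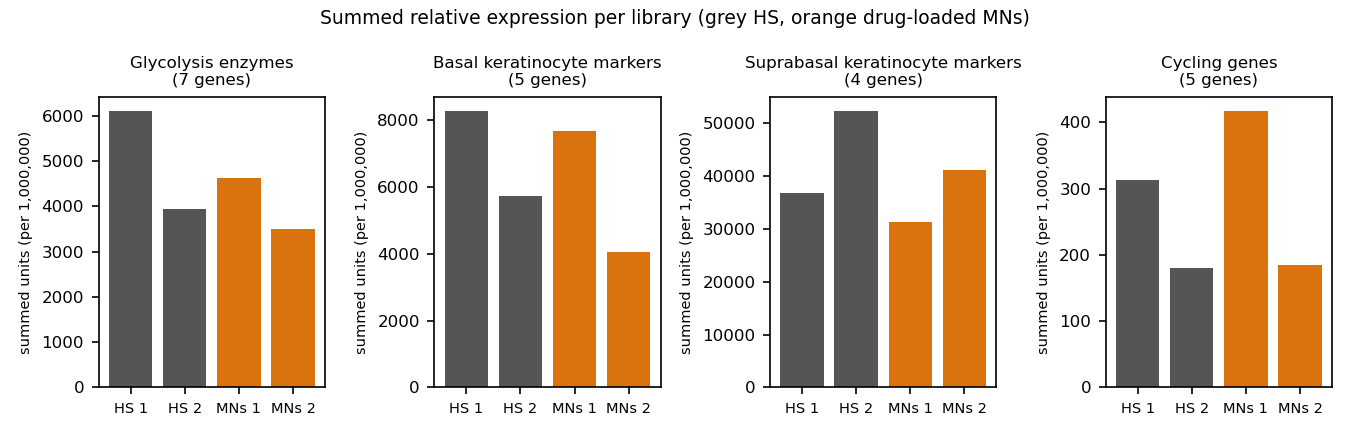
Summed relative expression in units per 1000000 of the library total (vertical axes from 0, a scale for each panel) per library for the 7 glycolysis enzymes, the 5 basal and 4 suprabasal keratinocyte markers and the 5 cycling genes in the table, with grey bars for HS and orange bars for drug-loaded MNs. The sums of the enzymes and of the basal markers have the same order of the 4 libraries, although of the 5 basal genes this order was held by KRT14 alone, and the suprabasal sum, mostly KRT10, is higher in replicate 2 of each group.

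Genes whose pattern over the 4 libraries was most like the mean of the 7 enzymes were sought among 6490 other genes with a mean of at least 10 units. Likeness was the root mean square difference of centred log2(value + 1), for which 0 is an identical profile. The mean joined unlike profiles and was not that of any 1 enzyme. In HS replicate 1 it stood at 0.27, with the enzymes from aldolase to pyruvate kinase at 0.42 to 0.53. HK1 was at -0.21 there and HK2 at -0.26. The genes below are thus like the mean, which does not make them like an enzyme. The nearest were EIF3D, a subunit of the translation initiation factor eIF3 (0.005), ENSOCUG00000021492, which has no symbol (0.006), HSD17B10, a mitochondrial dehydrogenase (0.018), MST1R, a receptor tyrosine kinase (0.018), and MRPS35, a protein of the mitochondrial ribosome (0.020). Of the 6490 genes, 394 lay within 0.1, a looser limit than the distances of the genes named here. With 4 libraries a profile holds few values, and such likeness is a description without a test. EIF3D stood at 206 and 166 units in HS against 165 and 150.2 units in drug-loaded MNs.

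Other enzymes and isoenzymes of glycolysis did not pass either. Of 20 listed, 14 were in the table and 9 were tested, of which 4 were above 0 and 5 below, with a median log2 fold change of -0.02. The groups overlapped in all 9, and 0 had an unadjusted p under 0.05. Several were named after their values had been seen. GPI, the isomerase of the second step, had the order of ENO1, at 377 and 249 units in HS against 311 and 242 units in drug-loaded MNs. ALDOC, another aldolase, was at 114 and 38.6 units in HS against 57.3 and 40.6 units in drug-loaded MNs, so HS replicate 1 was the highest for it as well.

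LDHB, the lactate dehydrogenase subunit that favours pyruvate formation, did not have this order. It was at 184 and 119 units in HS against 215 and 156 units in drug-loaded MNs, with overlap of the groups and 0.31 higher in drug-loaded MNs on the log2 scale (adjusted p 0.840 by limma). Within libraries, the log2 ratio of LDHB to ENO1 was -3.27 and -3.22 in HS against -2.74 and -2.68 in drug-loaded MNs, so the ratio did not overlap between groups. The difference was 0.53 against a pooled SD of 0.0386. This was 1 of 9 ratios formed after the values had been seen, and it is a description without a test. The ratio of GAPDH to ENO1 did not overlap either, at -0.327 and -0.376 in HS against -0.385 and -0.520 in drug-loaded MNs. Lack of overlap is common with 2 libraries a group, and 37.8% of single tested genes had it. Among the other ratios to ENO1, GAPDH differed by -0.10, TPI1 by -0.16, ALDOA by -0.15 and PKM by 0.04 on the log2 scale, against pooled SDs of 0.0716 to 0.165. HK1 differed by 0.29 and ALDOC by -0.23, against pooled SDs of 0.552 and 0.436.

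Glucose enters cells through SLC2A transporters, and monocarboxylate transporters carry lactate out. Of 14 transport genes listed, 6 were in the table and 5 were tested, with 4 above 0, 1 below and a median of 0.14. SLC2A1, the glucose transporter of the basal epidermis and of hypoxic cells, was at 86.0 and 78.3 units in HS against 57.9 and 45.8 units in drug-loaded MNs. Both drug-loaded MNs libraries were below both HS libraries, which was so in 11.2% of tested genes. Its log2 fold change was -0.66 (SE 0.23), with an unadjusted p of 0.0234 in limma, shared in that direction by 1.39% of tested genes, and an adjusted p of 0.458, so it did not pass. SLC16A1, a lactate carrier named after its values had been seen, was at 28.9 and 15.4 units in HS against 29.3 and 22.5 units in drug-loaded MNs.

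Among 10 regulators of the chain, 7 were in the table and 5 were tested, with 3 above 0 and 2 below. MYC, a transcription factor that drives glycolytic genes, was at 389 and 477 units in HS against 255 and 306 units in drug-loaded MNs. Without overlap of the groups, 2 of the 5 regulators, MYC among them, were lower in drug-loaded MNs and 2 were higher. Over all tested genes these shares were 11.2% and 26.6%. The log2 difference of MYC was -0.62 (SE 0.23, unadjusted p 0.0283 and adjusted p 0.485 by limma). For the entry of pyruvate into mitochondria, 8 of 13 listed genes were tested, 4 above and 4 below 0, with a median of 0.01. PDK4, the kinase that shuts off pyruvate dehydrogenase, was at 55.3 and 59.6 units in HS against 17.7 and 30.3 units in drug-loaded MNs. The groups did not overlap, and the log2 fold change was -1.27 (SE 0.30), with an unadjusted p of 0.0032 and an adjusted p of 0.314 in limma. For MYC and PDK4 alike, 1.39% of tested genes had an unadjusted p under 0.05 in that direction. Among the 8 genes of pyruvate entry, 2 were lower and 2 higher without overlap.

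The neighbouring pathways had medians from -0.16 to 0.25, and none of their genes passed in limma or had an unadjusted p under 0.05. The 10 tested genes of the citric acid cycle had a median of 0.05, with OGDH, a dehydrogenase of the cycle, at 116 and 117 units in HS against 127 and 129 units in drug-loaded MNs (log2 fold change 0.14, adjusted p 0.905 by limma). The 8 tested genes of glycogen metabolism were all above 0, with a median of 0.25, where only 35.4% of all tested genes were below 0. The median over all tested genes was 0.12. Scaled by median ratios, the median of the glycogen genes was 0.115. PGM5, a relative of phosphoglucomutase, was at 0.42 in the main fit (limma adjusted p 0.756). The 3 tested genes of the pentose phosphate pathway were all below 0 without overlap of the groups, where 11.2% of tested genes had no overlap in that direction, with a median of -0.16 and H6PD, its enzyme in the endoplasmic reticulum, at -0.34 (limma adjusted p 0.821). The 2 tested genes of gluconeogenesis had a median of 0.08.

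**Figure D5:**
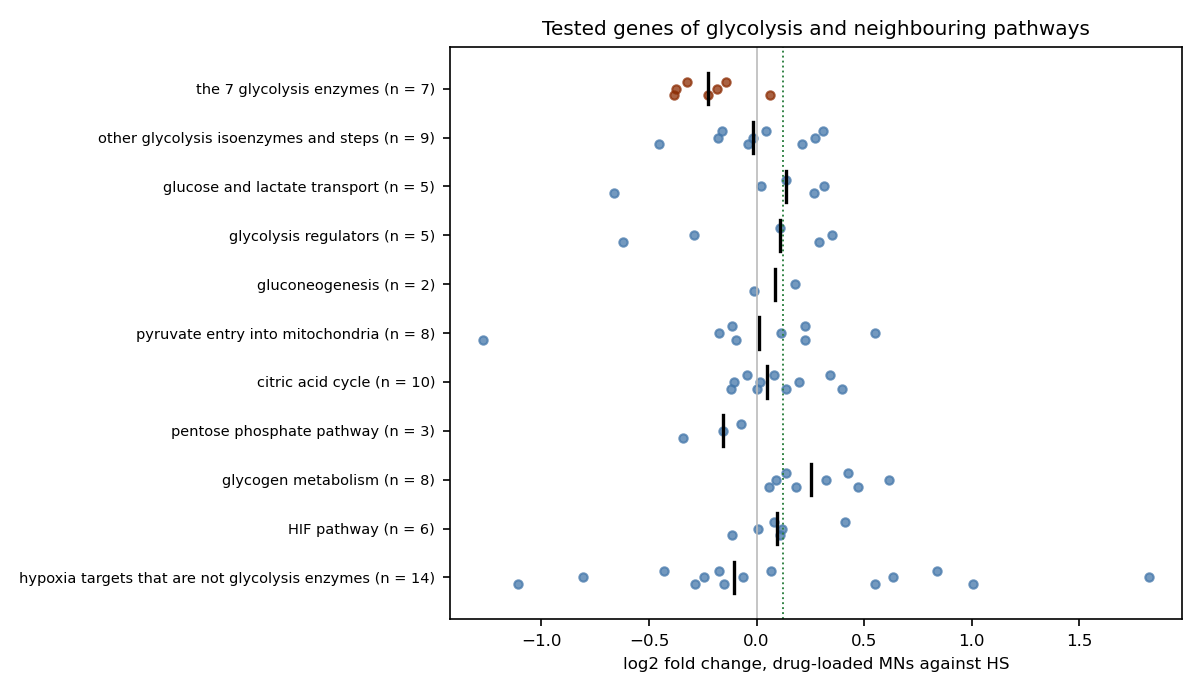
Log2 fold change of drug-loaded MNs against HS (horizontal axis) of every tested gene in each list (rows, with the number of tested genes), with a black bar at the median of a list and a dotted line at the median of all tested genes (0.12). The 7 glycolysis enzymes lie between -0.38 and 0.06, and the hypoxia targets spread from -1.11 to 1.82.

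Subsequently, genes of the hypoxia response were read beside the enzymes. In the HIF pathway, 6 of 8 listed genes were tested, 5 above 0 and 1 below, with a median of 0.10. HIF1A itself, named after its values had been seen, was at 219 and 207 units in HS against 234 and 226 units in drug-loaded MNs, and HIF1AN, the asparagine hydroxylase that inhibits it, was at 0.12 on the log2 scale (adjusted p 0.936 by limma). Of 18 listed hypoxia targets that are not glycolysis enzymes, 14 were tested, and 0 passed an adjusted p of 0.05 in limma. An unadjusted p under 0.05 was seen in 5 above 0 and 2 below, where 7.26% and 1.39% of tested genes had one in these directions.

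These targets did not share a direction. NDRG1, a gene of stress and differentiation, was at 7.91 and 12.6 units in HS against 49.97 and 28.8 units in drug-loaded MNs (log2 fold change 1.82, adjusted p 0.264 by limma). LOX, which crosslinks collagen, was at 206 and 273 units in HS against 443 and 512 units in drug-loaded MNs (log2 fold change 1.004, adjusted p 0.314 by limma). DDIT4, an inhibitor of mTOR signalling, was at 296 and 303 units in HS against 116 and 165 units in drug-loaded MNs (log2 fold change -1.11, adjusted p 0.314 by limma). In each of these 3 genes the groups did not overlap. Among tested genes, 26.6% had no overlap with drug-loaded MNs higher and 11.2% with drug-loaded MNs lower. Fibroblast markers moved with LOX, the 5 in the table (of 6 listed, none at 0) summing to 22929 and 22452 units in HS against 44488 and 48451 units in drug-loaded MNs, and the part of this in LOX was not tested.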

How the data were processed

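Reads of the 4 droplet libraries were aligned and counted as unique molecular identifiers by the authors with Cell Ranger (2.1.1 per the labels, another version in the study's reporting summary) and handled in Seurat after filters on cells. The deposited values are a signal per gene and library, each column with a total of 10000. The table is named for FPKM, but how cells were combined and whether length was corrected for were not stated. The methods mention removal of batch effects across samples, without saying whether these values had passed through it. The treatment of doublets was not stated, and none could be called from values per library. The submitters' notes name the mouse build mm10, whereas the gene identifiers are rabbit Ensembl, and no coordinates are given here. Of low values up to 20 steps above the smallest, 18.6% to 21.7% lay within 0.1 of whole steps, so reads were not recovered and depth was unknown. How reads shared with pseudogene copies were counted was not stated.

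Values were rescaled to 1000000 per library. Genes averaging under 1 unit were dropped. A linear model of log2(value + 1) with a moderated variance trend was run in limma 3.58.1 under R 4.3.3, two-sided, with Benjamini-Hochberg adjustment over all tested genes. Fold changes are on this scale, which understates low genes. The fit was tested on simulated data. A test written for FPKM was used unchanged. With 2 libraries a group, an exact permutation test could not pass and was not used.

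The enzymes and lists were chosen with earlier results of these data known. Named genes were the enzymes, from each pathway list up to 3 genes with an unadjusted p under 0.05 or, failing that, the gene of largest change without overlap, and the 5 most similar profiles. Alternatives were other scalings, pseudocounts, filters, priors, a replicate block and leaving out each library.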

Additional observations from a re-analysis of the deposited data

How the results depend on the processing

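All alternatives were planned, and DESeq2 was not run because no whole counts were held. In all 14 alternatives 0 of the 7 enzymes passed an adjusted p of 0.05, with values from 0.308 to 1, the lowest for ALDOA without HS replicate 2, where 2 of the 7 had an unadjusted p under 0.05. The median of the enzymes kept its sign, from -0.37 under median ratio scaling to -0.22 with a pseudocount of 5, and from -0.57 to -0.072 with 1 library left out. Median ratio scaling and quantile normalization moved the median of all tested genes from 0.12 to -0.01 and -0.02, and the enzymes then lay 0.36 and 0.27 below it, against 0.34. HK1 was -0.080 and -0.012 under these scalings. With 1 library left out, log2 fold changes ran from -0.12 to 0.24 for HK1, -0.67 to 0.38 for HK2, -0.69 to 0.042 for GAPDH, -0.57 to 0.12 for ENO1 and -0.51 to 0.14 for PKM. The summed difference ranged from -2039 to 127 units.

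In the whole table, the 4 calls became 0 with quantile normalization, median ratios, a total without abundant genes, a pseudocount of 5 or no filter, 1 with eBayes without trend, 241 with the replicate block, and 0 to 38 with 1 library left out, where the remaining library is taken to vary as the other group does. The cause was not tested. Same-numbered libraries share only a number: the correlation of their deviations was 0.22, and no pairing can be shown from 2 pairs. Under the block 0 enzymes passed, the lowest adjusted p being 0.586 for TPI1. Depth was unknown, so what it limits was not measured.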
